A study of Oryza sativa with 4 samples.

Results

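The window described here is a stretch of rice chromosome 7 between the loci LOC_Os07g31000 and LOC_Os07g34000, centred on a short run of neighbouring loci, LOC_Os07g32680 to LOC_Os07g32710, that was strongly raised in a transgenic line. Its members are the loci in that range with at least 1 non-control probe, 268 of the 52765 loci probed on the array. The 4 members of the run were selected on their difference in processed signal between the transgenic line and the wild type, so their differences, and all differences between the same groups in the window, are given as a description with no p-value.

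Total RNA of whole 14-day-old seedlings was labelled with Cy3 and hybridised to 1-colour Agilent arrays. Line 40 (n = 2 arrays) was japonica Nipponbare carrying a transgene that overexpresses LOC_Os02g43330, and the reference was untransformed japonica Nipponbare (n = 2 arrays). Plants of both groups were raised in soil pots in a greenhouse under natural light. The series design calls the replicates biological. Line 40 is a single transgenic line, and the promoter of its transgene, its place of insertion and the number of plants behind each RNA are not given in the sources used here.

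LOC_Os02g43330 is known as HOX24, a class I homeodomain-leucine zipper gene. Proteins of this plant family bind DNA through the homeodomain and pair through the zipper, and members are studied for their part in responses to drought and abscisic acid. In the rice annotation whose identifiers the probes carry, the digits after the chromosome number follow the order of loci along the chromosome. Neighbours in number are therefore neighbours on the chromosome, though the numbers do not give a distance in bases. The files name each probe by such an identifier alone, with no symbol, description or probe sequence. The members are therefore described by locus, level and position, with no gene function.

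Values are log2 of the scanner's processed signal minus the 75th percentile of the array, so 0 is the signal that 75% of non-control spots did not exceed. The levels of different probes cannot be set against each other, and comparisons run between arrays for the same probe. The limma threshold used below is an adjusted p under 0.05, with Benjamini-Hochberg adjustment over all tested loci. The line 40 arrays each detected 37482 and 37901 of 55046 probes well above background, and the wild type arrays 39692 and 39802. All 5 leaf markers checked (Rubisco small subunit, light-harvesting and oxygen-evolving complex genes) and all 3 root markers (ammonium, nitrate and silicon transporter genes) were well above background on all 4 arrays, and whole seedlings hold both organs. The leaf markers LOC_Os12g17600 and LOC_Os01g31690 passed the limma threshold as higher in line 40, by log2 differences of 1.44 and 1.12. The light-harvesting genes LOC_Os01g41710 and LOC_Os09g17740 lay at 0.18 and -0.09, and LOC_Os12g19470, which encodes a Rubisco small subunit, at 0.87. The root markers LOC_Os02g40710, LOC_Os02g02170 and LOC_Os02g51110 did not pass and lay at -1.36, -0.80 and -0.10. Both line 40 arrays lay below both wild type arrays for LOC_Os02g40710 alone among these 3. The part of these markers in the values of the window was not tested. No non-control spot was saturated. The overexpressed locus LOC_Os02g43330 had processed signals of 229115 and 280179 on the line 40 arrays, against 1449 and 2116 on the wild type arrays.

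LOC_Os07g32710, at the right end of the run, had the largest difference in the window. Its processed signals were 30168 and 29284 on the line 40 arrays, against 182 and 271 on the wild type arrays. Both line 40 arrays lay far above both wild type arrays, and each pair of replicates lay close together. On the normalized scale it was at 6.16 ± 0.10 in line 40 and -0.93 ± 0.12 in wild type (SD, n = 2 each), a log2 difference of 7.08 (SE 0.16), or 136-fold. Among the 34056 loci measured on all 4 arrays this difference ranked 2, behind that of LOC_Os02g43330 itself (7.20).

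LOC_Os07g32680, at the left end of the run, showed the same pattern. Its processed signals were 3783 and 3304 on the line 40 arrays, against 51.0 and 80.8 on the wild type arrays. The groups did not overlap: the level was 3.08 ± 0.20 in line 40 and -2.72 ± 0.18 in wild type (SD, n = 2 each), a log2 difference of 5.80 (SE 0.19), or 55.9-fold. It ranked 3 among the loci measured on all 4 arrays, next after LOC_Os07g32710. Among loci measured on all 4 arrays, the 3 largest differences were therefore those of the overexpressed locus and of both ends of the run. Over all tested loci the largest was 11.0, at a locus not measured on all 4 arrays.

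LOC_Os07g32700 was also higher in line 40, by a smaller margin. It had processed signals of 361 and 390 on the line 40 arrays, against 45.1 and 32.4 on the wild type arrays. The line 40 arrays were nearly equal, while the wild type arrays, closer to background, differed more. The level was -0.15 ± 0.01 in line 40 and -3.47 ± 0.63 in wild type (SD, n = 2 each), a log2 difference of 3.32 (SE 0.32), or 9.96-fold, which ranked 20. With normexp background correction this difference was 2.20, or 4.61-fold, and without a filter on dim probes the locus did not pass the limma threshold. The difference of its line 40 and wild type arrays, taken pair by pair, ran between 2.86 and 3.77. That range was 5.53 to 6.07 for LOC_Os07g32680 and 6.93 to 7.24 for LOC_Os07g32710.

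The run was not raised throughout. LOC_Os07g32690, between the raised loci, had processed signals of 2.39 and 2.55 on the line 40 arrays, against 5.13 and 7.48 on the wild type arrays, and was well above background on no array. On both line 40 arrays the scanner software did not call its signal significantly positive, while on both wild type arrays it did. The locus was left out of the test, and no fold is given for it.

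In whole seedlings, a difference in the number of cells that hold a transcript and a difference in the amount per cell cannot be told apart. Each of the 4 loci of the run had 1 probe printed once per array, so no second probe bears on these values. Cross-hybridisation between related transcripts was not tested.

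**Figure D1:**
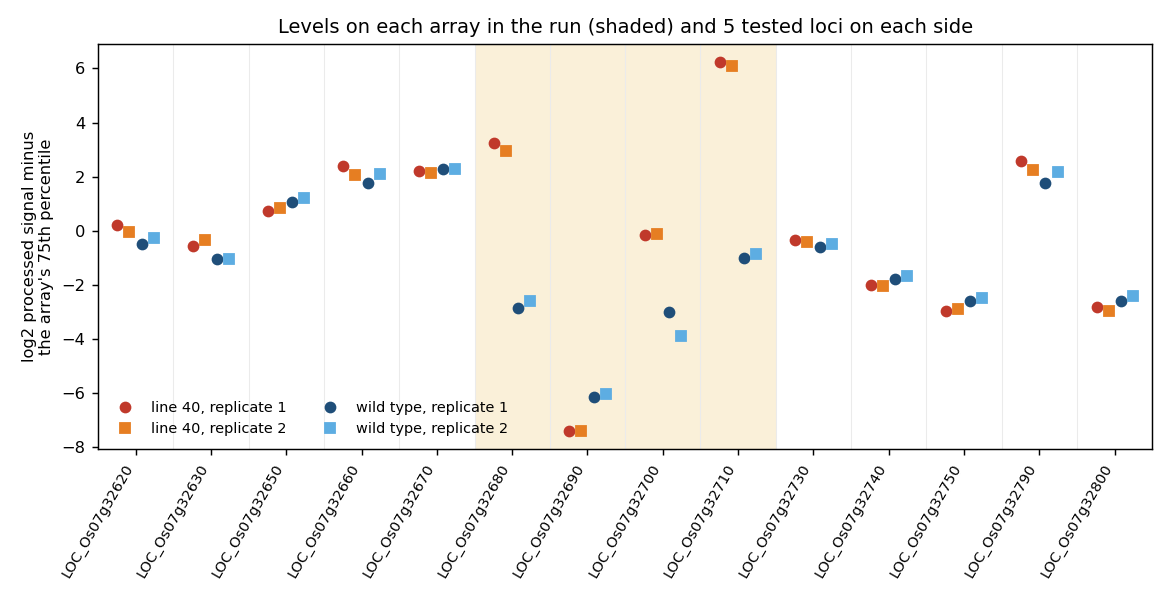
Levels of the 4 loci of the run (shaded) and of the 5 nearest tested loci on each side, on the normalized log2 scale, with 1 point per array. LOC_Os07g32680, LOC_Os07g32700 and LOC_Os07g32710 stand apart by 3.32 to 7.08 on the log2 scale, LOC_Os07g32690 is near background on every array, and on either side the 4 arrays lie within 1 unit of each other. Heights of different loci are not comparable.

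The raised run had sharp edges. LOC_Os07g32670, the nearest probed locus on its left, was at 2.18 ± 0.05 in line 40 and 2.28 ± 0.01 in wild type (SD, n = 2 each), a log2 difference of -0.10 (SE 0.14). LOC_Os07g32730, the nearest on its right, was at -0.38 ± 0.03 in line 40 and -0.55 ± 0.10 in wild type (SD, n = 2 each), a difference of 0.17 (SE 0.15). Both neighbours thus differed by about 1 SE or less. These 2 loci, just outside the run, stand beside 5.80 and 7.08 for the loci just inside it.

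Apart from LOC_Os07g32600, the next tested loci outward differed by more than these 2 neighbours did, in both directions. All differed by far less than the run. On the left, LOC_Os07g32660 lay at 0.29 (SE 0.20) with overlapping groups, LOC_Os07g32650 at -0.36 (SE 0.15), LOC_Os07g32630 at 0.59 (SE 0.16), LOC_Os07g32620 at 0.46 (SE 0.17), LOC_Os07g32600 at -0.04 (SE 0.16) and LOC_Os07g32590 at 0.44 (SE 0.15). On the right, LOC_Os07g32740 lay at -0.30 (SE 0.15), LOC_Os07g32750 at -0.37 (SE 0.15), LOC_Os07g32790 at 0.44 (SE 0.21), LOC_Os07g32800 at -0.40 (SE 0.16), LOC_Os07g32820 at -0.22 (SE 0.43) and LOC_Os07g32830 at 0.38 (SE 0.17). Of the 10 tested loci next to the run, 5 on each side, 5 lay above 0 and 5 below, with a median of 0.03. Both line 40 arrays lay above both wild type arrays for 4 of these 10 (25.1% over all tested loci) and below them for 5 (34.3% over all tested loci). Of the nearest 20, 10 on each side, those counts were 10 and 6, and none of the 20 passed the limma threshold.

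The 6 other loci among the 10 probed loci next to the run on each side were near background and not tested. LOC_Os07g32640, LOC_Os07g32580, LOC_Os07g32610 and LOC_Os07g32810 were well above background on no array. LOC_Os07g32774 had processed signals of 2.66 and 2.85 on the line 40 arrays, against 8.62 and 16.9 on the wild type arrays, and was above background on 1 wild type array. Its groups did not overlap, but its line 40 signals lay at background.

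LOC_Os07g32761, close to the right edge of the run, was printed 15 times on each array and so shows the error of a dim spot. None of its 15 spots was well above background on either line 40 array, against 14 on wild type replicate 1 and 4 on wild type replicate 2. Its mean level was -6.52 and -6.95 on the line 40 arrays, against -4.47 and -5.35 on the wild type arrays. The spots of 1 array varied with an SD of 0.71 and 0.60 in line 40 and 0.43 and 0.30 in wild type. LOC_Os07g32060, a brighter locus further left that was also printed 15 times, had spot SDs of only 0.10 and 0.12 in line 40 and 0.10 and 0.09 in wild type. Its means were -1.34 and -1.28 in line 40, against -1.28 and -0.98 in wild type. The wild type arrays of that locus differed by more than its spots did within an array, and the line 40 arrays by less. Repeated spots therefore do not stand in for the error between samples.

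**Figure D2:**
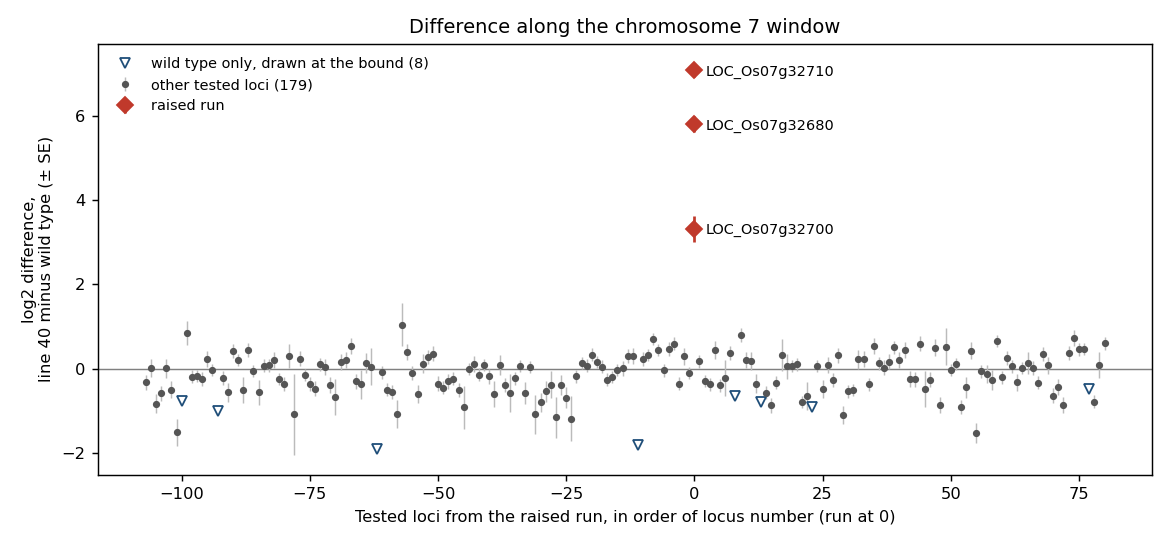
Log2 difference (line 40 minus wild type, ± limma's SE) of the 190 tested loci of the window, in order of locus number with the run at 0. Open triangles are the 8 loci measured in wild type only, drawn at the bound of their difference. The 3 raised loci stand at 3.32, 5.80 and 7.08, while the other 172 loci measured on all 4 arrays lie between -1.54 and 0.84.

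Of the 268 loci of the window, 190 were tested, having a probe with signal well above background in line 40, in wild type or in both, on each of that group's arrays. A total of 175 were measured on all 4 arrays, 63 on no array, 8 on both wild type arrays only and 22 on another part of the arrays. No locus of the window was measured in line 40 only, as for 0.37% of loci on the whole array. The 8 loci measured in wild type only were 8 of 268, beside 2.25% over all loci.

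In the window 3 loci passed the limma threshold as higher in line 40, where 0.93% of all 36900 tested loci did. These were the 3 raised loci of the run, and the same contrast had chosen them. A further 2 loci passed as lower, where 1.15% of all tested loci did. Both were measured in wild type only and had entered the test through wild type. Among the 172 loci outside the run that were measured on all 4 arrays, none passed in this limma fit. At a log2 difference of at least 1, the window held 4 loci that were higher in line 40 (2.26% over all tested loci) and 13 that were lower (5.61% over all tested loci). Of these 13, 5 were measured in wild type only, and their counted differences rest on line 40 signals not well above background. A bound of at least 2-fold was reached by 3 of these 5. The fourth of the higher loci, named after its values were seen, was LOC_Os07g31790, far left of the run, at 1.04 (SE 0.51). Its line 40 arrays differed from each other by more than that, at -3.50 and -4.99, against -5.46 and -5.12 on the wild type arrays.

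Outside the run the median of the window lay near that of the rest of the array. The median log2 difference of its 172 loci measured on all 4 arrays was -0.05, with quartiles of -0.39 and 0.20, beside -0.04 with quartiles of -0.31 and 0.20 over all 34056 such loci. Of the 172, 7 were at least 2-fold lower (4.07%, beside 2.84% over all such loci) and none was at least 2-fold higher. Both line 40 arrays lay below both wild type arrays for 40.7% of the 172, beside 32.0% over all such loci. They lay above them for 26.2%, beside 26.1%. Over all tested loci of the window, the 8 measured in wild type only included, the medians from left to right were -0.21 over 64 tested loci from LOC_Os07g31000 up to LOC_Os07g32000, -0.04 over the 43 from there to the run, 0.05 over the 41 up to LOC_Os07g33400 and -0.03 over the last 39. In blocks of 10 tested loci counted outward from the run, the block medians ran between -0.52 and 0.31. The block next to the run on the left had the highest of them, and the block next to it on the right was at -0.03.

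Dim loci had lower differences than bright ones, in the window and over the array. With all loci measured on all 4 arrays split by mean signal into 3 classes of equal size, the dimmest class had a median log2 difference of -0.18, against 0.07 in the brightest. Within the window outside the run, those medians were -0.30 over 71 dim loci and 0.08 over 58 bright loci. Of the 7 loci at least 2-fold lower there, 6 were in the dimmest class. The part of signal strength in these differences was not tested.

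LOC_Os07g31230 was one of the 2 loci that passed as lower, a call that held under 6 of 12 alternatives. The call was lost with normexp background correction, quantile normalization and cyclic loess, among others. This locus had processed signals of 2.68 and 3.38 on the line 40 arrays, against 14.0 and 31.7 on the wild type arrays, and was not well above background in line 40. Its measured means were -7.11 ± 0.17 in line 40 and -4.33 ± 0.54 in wild type (SD, n = 2 each). By the mean of its wild type arrays it was at least 2.01-fold lower in line 40. That bound sets the wild type mean against the lowest signal that counted as above background, and a single wild type array can fall short of it. LOC_Os07g33921, the other one, is named here after its values were seen. It had processed signals of 4.76 and 5.09 on the line 40 arrays, against 15.1 and 14.2 on the wild type arrays, was called under 5 of 12 alternatives and was at least 1.39-fold lower, with measured means of -6.40 ± 0.00343 in line 40 and -4.85 ± 0.36 in wild type (SD, n = 2 each).

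Larger bounds were found for 2 loci whose wild type arrays disagreed. LOC_Os07g31670 had processed signals of 4.28 and 6.39 on the line 40 arrays, against 77.5 and 20.4 on the wild type arrays, and was at least 3.79-fold lower. LOC_Os07g32520 had 2.38 and 7.82 on the line 40 arrays, against 15.1 and 91.2 on the wild type arrays, and was at least 3.53-fold lower. Both bounds rest on the mean of the 2 wild type arrays, and the dimmer array alone would give a smaller one. Neither locus passed the limma threshold, and it was a different wild type array that was the brighter one in each.

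Among loci measured on all 4 arrays away from the run, the 8 highest differed by far less than the run did. LOC_Os07g31110 led them at 0.84 (SE 0.28), with processed signals of 45.7 and 70.1 on the line 40 arrays, against 23.0 and 44.7 on the wild type arrays. LOC_Os07g32880 followed at 0.80 (SE 0.16), with levels of 0.68 and 0.84 on the line 40 arrays, against -0.12 and 0.04 on the wild type arrays. The others were LOC_Os07g33860, LOC_Os07g32570, LOC_Os07g33660, LOC_Os07g33997, LOC_Os07g33450 and LOC_Os07g31610, between 0.54 and 0.72. In each of the 8, both line 40 arrays lay above both wild type arrays, and none passed the limma threshold.

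LOC_Os07g32570 had 2 probes, which gave nearly the same difference. The first was at 8.28 ± 0.03 in line 40 and 7.58 ± 0.10 in wild type (SD, n = 2 each), a difference of 0.70, and the second at 8.13 ± 0.10 in line 40 and 7.41 ± 0.22 in wild type (SD, n = 2 each), a difference of 0.72. In the window 8 loci had more than 1 probe, and in the 7 with both probes tested the 2 differences lay within 0.02 to 0.21 of each other.

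LOC_Os07g33620 was lowest among the loci measured on all 4 arrays. It had processed signals of 330 and 237 on the line 40 arrays, against 684 and 988 on the wild type arrays. The groups did not overlap: its level was -0.58 ± 0.40 in line 40 and 0.96 ± 0.08 in wild type (SD, n = 2 each), a log2 difference of -1.54 (SE 0.23), or 2.90-fold lower. LOC_Os07g33580, 3 probed loci to its left, lay at -0.52 ± 0.15 in line 40 and 0.40 ± 0.07 in wild type (SD, n = 2 each), a difference of -0.92 (SE 0.16). Of the loci between them, LOC_Os07g33610, also named after its values were seen, was above 0, with levels of -2.39 and -2.75 on the line 40 arrays, against -3.13 and -2.85 on the wild type arrays. The lower values there did not form an unbroken run.

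**Figure D3:**
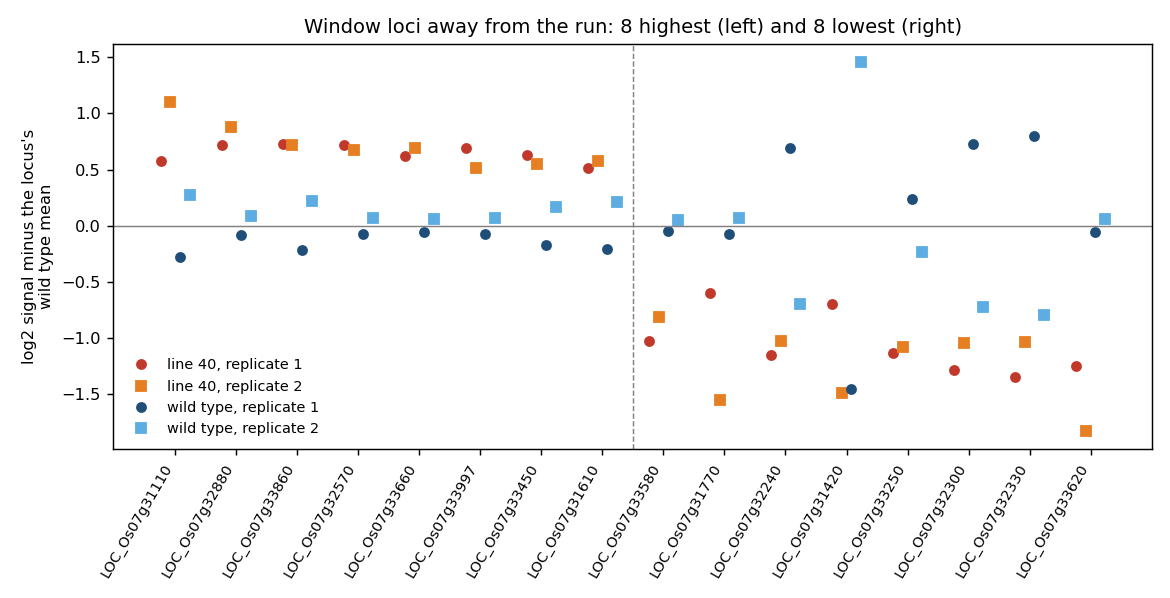
Levels on each array, minus the locus's wild type mean, for the 8 highest and the 8 lowest window loci measured on all 4 arrays outside the run and its 20 nearest neighbours. In the 8 highest the line 40 arrays lie above both wild type arrays by less than 1 unit on average, and in LOC_Os07g32240, LOC_Os07g32300, LOC_Os07g32330 and LOC_Os07g31420 the wild type arrays are more than 1 unit apart.

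A stretch of 8 tested loci from LOC_Os07g32240 to LOC_Os07g32330, left of the run and named as a stretch after its values were seen, was uniform in another way. All 8 lay below 0, between -1.19 and -0.38, and none passed the limma threshold. All 8 were also brighter on wild type replicate 1 than on wild type replicate 2, by 0.37 to 1.59 with a median of 0.75, beside a median of -0.04 over all tested loci. LOC_Os07g32330 shows it best: its level was -3.65 and -3.34 on the line 40 arrays, against -1.51 and -3.10 on the wild type arrays. LOC_Os07g32300 had -3.39 and -3.16 on the line 40 arrays, against -1.39 and -2.84 on the wild type arrays. In both, wild type replicate 2 lay near the line 40 arrays and wild type replicate 1 apart from the other three.

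Among the remaining low loci, LOC_Os07g33250 and LOC_Os07g31770 had no wild type array that stood apart, while in LOC_Os07g31420 wild type replicate 2 did. LOC_Os07g33250, at -1.10 (SE 0.21), had processed signals of 15.5 and 17.1 on the line 40 arrays, against 36.1 and 34.7 on the wild type arrays. LOC_Os07g31770, at -1.08 (SE 0.34), had 71.9 and 39.7 on the line 40 arrays, against 94.4 and 138 on the wild type arrays. LOC_Os07g31420, at -1.09 (SE 0.97), had 37.1 and 22.8 on the line 40 arrays, against 19.9 and 198 on the wild type arrays. Its groups overlapped, and its difference came from a single wild type array.

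At the ends of the window, loci differed in both directions. Just inside its left end, LOC_Os07g31000 and LOC_Os07g31010 lay at -0.32 (SE 0.18) and 0.01 (SE 0.21). Just outside, LOC_Os07g30980 and LOC_Os07g30990 lay at 0.05 (SE 0.17) and -0.60 (SE 0.22). Just inside its right end, LOC_Os07g33988 and LOC_Os07g33997 lay at 0.08 (SE 0.31) and 0.60 (SE 0.16). Just outside, LOC_Os07g34006 and LOC_Os07g34020 lay at -0.59 (SE 0.17) and 0.16 (SE 0.16).

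To place the run among other neighbourhoods, consecutive tested loci with a log2 difference of at least 1 in the same direction were joined into runs on all 12 chromosomes. Loci that were not tested, such as LOC_Os07g32690, did not break a run. Of the runs of at least 2 loci that were higher in line 40, 30 had every locus measured on all 4 arrays, and 3 of these had 3 loci, their greatest length. The smallest difference within the chromosome 7 run was 3.32, and among these 30 it was the only run in which every locus exceeded 3. The other 2 runs of 3 loci had medians of 1.20 and 1.37 and began at LOC_Os03g48760 and LOC_Os07g37230. Among runs of 2 loci measured on all 4 arrays the highest median was 2.82, at LOC_Os03g19860 and LOC_Os03g19870. Since the run was chosen for its rise, this placing is a description.

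Runs that were lower in line 40 numbered 44 with every locus measured on all 4 arrays, and their medians lay between -2.26 and -1.03. The longest of them had 3 loci, from LOC_Os04g21790 to LOC_Os04g21820, with a median of -1.43. Without that requirement there were 157 lower runs, and the longest had 8 loci, from LOC_Os01g50480 to LOC_Os01g50590. Its median was -1.72, and 7 of its 8 loci were measured on all 4 arrays. The 157 also held a pair, LOC_Os01g22230 and LOC_Os01g22249, with a median of -7.04 and a smallest size of 6.14. Both loci of that pair were measured in 1 group only, so these sizes rest partly on signals not well above background. Higher runs numbered 43 without the requirement, and the chromosome 7 run was the only one in which every locus exceeded 3. In the window, no 2 neighbouring tested loci were both at least 2-fold lower.

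**Figure D4:**
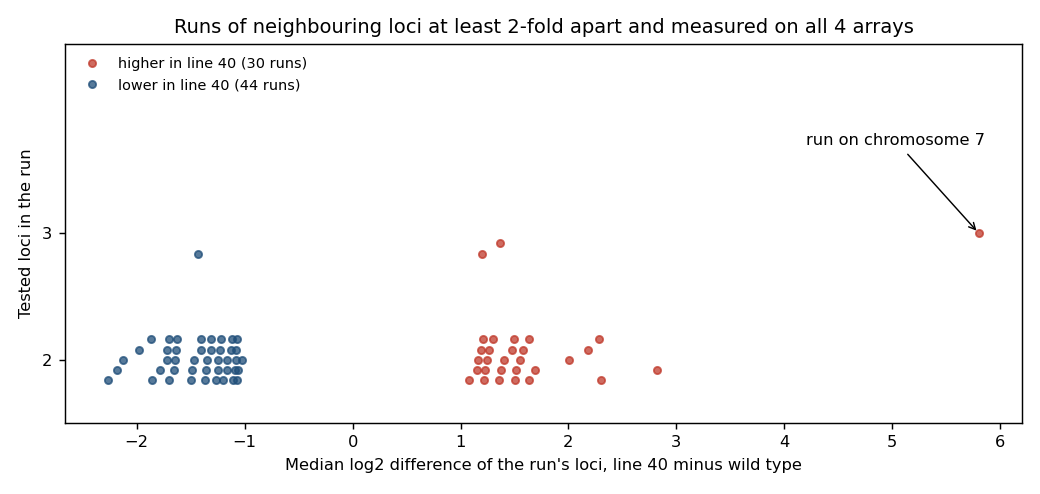
Runs of at least 2 neighbouring tested loci with a log2 difference of at least 1 in the same direction and every locus measured on all 4 arrays, by median log2 difference and number of loci (points of equal length are spread slightly in height so that they can be told apart). The chromosome 7 run of 3 loci, at a median of 5.80, lies apart from the other higher runs, whose medians reach 2.82.

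The surroundings of the overexpressed locus were described in the same way. Its neighbours LOC_Os02g43314 and LOC_Os02g43340, the nearest tested loci on either side, lay at -0.59 (SE 0.26) and 0.22 (SE 0.16). Of the 40 probed loci within 20 on each side of LOC_Os02g43330, 29 were tested, with a median of -0.11 and a range of -1.19 to 1.60, and 1 passed the limma threshold (2.08% over all tested loci). It was LOC_Os02g43410, with levels of -2.59 and -2.81 on the line 40 arrays, against -4.54 and -4.06 on the wild type arrays. Of the 40 probed loci within 20 on each side of the chromosome 7 run, 28 were tested and none passed. The 25 of them measured on all 4 arrays had a median of 0.20 and a range of -0.57 to 0.80. The other three were measured in wild type only, LOC_Os07g32520 among them. Among the loci of these 2 neighbourhoods, a single locus on chromosome 2 stood out by a log2 difference above 5. On chromosome 7 a pair did, with LOC_Os07g32700 between them at 3.32. The place of insertion of the transgene is not given, so the signal of LOC_Os02g43330 need not come from that stretch of chromosome 2. The 2 neighbourhoods may therefore not be like cases.

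**Figure D5:**
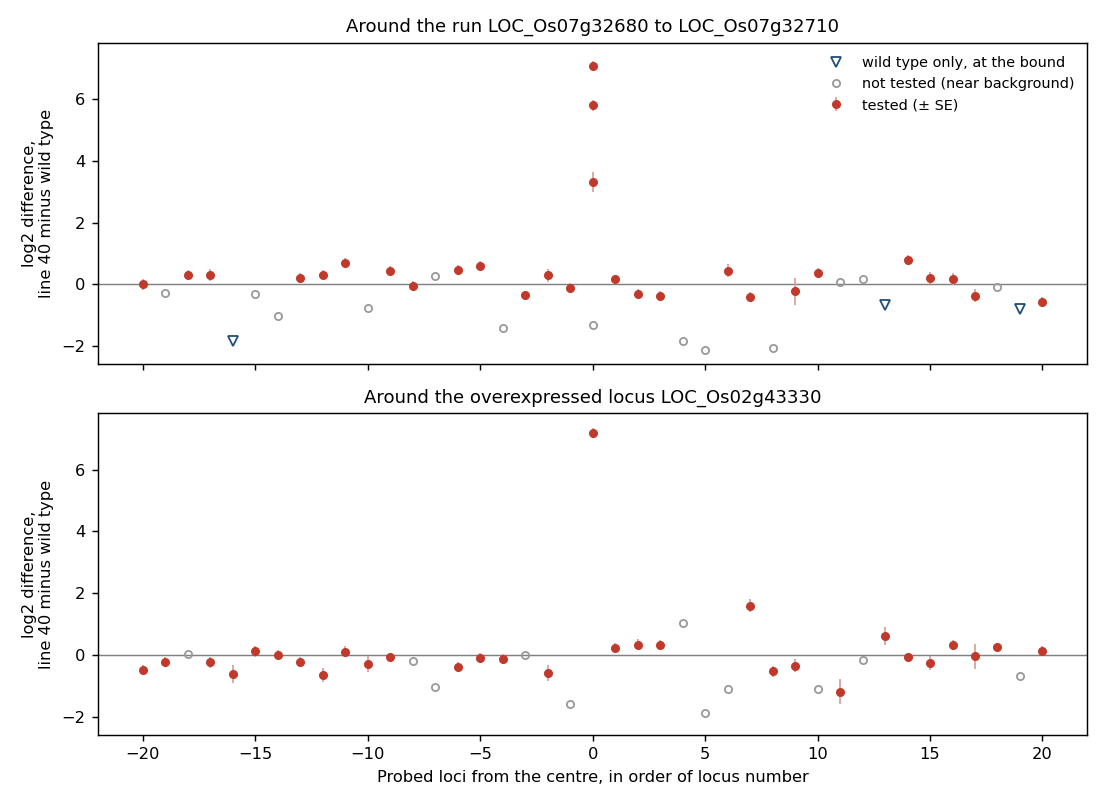
Log2 difference (line 40 minus wild type) of the 20 probed loci on each side of the run, above, and of LOC_Os02g43330, below, in order of locus number, with the centre at 0. Filled points were tested and carry limma's SE, open points were near background and not tested. Open triangles are loci measured in wild type only, drawn at the bound. Neighbours measured on all 4 arrays lie between -0.57 and 0.80 around the run, whose raised loci stand at 3.32 to 7.08, and between -1.19 and 1.60 around LOC_Os02g43330, at 7.20.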

How the data were processed

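Agilent Feature Extraction 10.7.1.1 made the deposited intensity values (the processed signal of each spot) from 1-colour scans, per the file headers. The deposited value table held the same intensities. The 1319 control spots and spots flagged as uneven were left out. Log2 values were computed from the deposited signals, minus each array's 75th percentile, and the spots of a probe were averaged. A probe counted as measured where more than 50% of its spots were well above background. A locus was tested if a probe was measured on both arrays of a group, and the tested probe with the highest mean stood for it.

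Line 40 was compared with wild type by limma 3.58.1 in R 4.3.3 (lmFit and eBayes, two-sided, Benjamini-Hochberg adjustment over 36900 loci). The method was tested on simulated data in which the spread of a locus did not depend on its signal. That test therefore does not cover a larger spread at dim loci. Standard errors are the moderated ones of the fit to the arrays, and having only 2 arrays in each group limits precision. The p-values set the difference between groups against the spread between these samples, moderated over all tested loci. With a single transgenic line they do not cover differences between lines. The members and lists were chosen with earlier results of these data known. The loci named were the run, 10 probed loci on each side of it, the 8 highest and 8 lowest window loci measured on all 4 arrays, loci measured in 1 group with a bound of at least 2-fold, 2 loci inside and outside each end, and LOC_Os02g43330. Same-numbered arrays did not deviate together (r = -0.073 across 36900 loci, which are not independent replicates), so replicate numbers were not used as pairs. The alternatives changed the background correction, scaling, filter, choice of probe and arrays used. The alternative background correction was planned on mean spot signals and was run on median spot signals, the column in the files used here.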

Additional observations from a re-analysis of the deposited data

How the results depend on the processing

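The 3 raised loci of the run passed the limma threshold under 11 of 12 alternatives. Without a filter on dim probes, LOC_Os07g32700 did not pass, and the window held 2 calls and the array 23 (15 higher, 8 lower). With normexp background correction the run's differences were 4.86 (29.0-fold), 2.20 (4.61-fold) and 6.73 (106-fold) for LOC_Os07g32680, LOC_Os07g32700 and LOC_Os07g32710, and the window held 8 calls (5 higher, 3 lower). The array then held 758 higher and 326 lower calls, beside 343 and 423 as reported. Median scaling moved the median of all tested loci to 0.08 and that of the window to 0.068, beside -0.06 and -0.08 as reported, and gave 13 calls in the window and 2735 on the array (1485 higher, 1250 lower). Under it small differences near 0 change side, and signs in the window are relative to that shift. Quantile normalization gave 3 calls in the window, all in the run, and 393 on the array (241 higher, 152 lower). Cyclic loess gave 288 higher and 254 lower calls. Requiring signal on all 4 arrays gave 504 calls (332 higher, 172 lower).

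With 1 array left out, the window held 4 to 13 calls, the array 399 to 1802, and the window median ran between -0.11 and -0.07. Without wild type replicate 2 the window held 13 calls (3 higher, 10 lower) and the array 1802 (303 higher, 1499 lower), and without wild type replicate 1 the array held 399 (74 higher, 325 lower). In these fits the lone array is assumed to vary like the other group. LOC_Os07g31230 passed as lower under 6 and LOC_Os07g33921 under 5 of 12 alternatives. Raised runs of at least 3 tested loci, measured on all 4 arrays or not, numbered 2 with normexp, 11 with median scaling and 8 without line 40 replicate 1, beside 4 as reported. With the replicate block the window held 6 calls and the array 778. LOC_Os07g33921 is not on the list of named loci given above, on which signs were followed. The 5 loci on it that had passed were the 3 raised loci of the run, LOC_Os07g31230 and LOC_Os02g43330. They kept their sign under all 12 alternatives. Their differences as reported ran from 2.79 to 7.20 in size and the same contrast had called them, so this gives no separate support. Of the 46 other loci on the list, 9 changed sign under at least 1 alternative. The cause of these shifts was not tested. Each locus of the run had 1 probe, so giving every probe on its own left nothing to vary. Near background, signals limit what can be said of dim loci.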
